A study of Mus musculus with 9 samples.

Results

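Acetylation of lysine 27 on histone H3 (H3K27ac) was compared between each of 2 mouse pancreatic cancer lines without Kdm6a and 1 line with it. The regions were taken from the 3 deposited H3K27ac lists by assay, line and position on autosomes 1 to 19, with no use of their values, which gave 61041 of the 185632 regions in the 9 lists of the series. They comprise 17972 regions of the female knockout line (female KO), 23322 of the male knockout line (male KO) and 19747 of the male line with Kdm6a (male WT). A region that overlapped the same line's list of H3K4me3, trimethylation of lysine 4, by at least 1 bp was called promoter-like, and every other region distal. All 3 lines came from pancreas of mixed C57BL/6-SV129 mice, were kept in F12/DMEM with EGF and received no treatment. The design text speaks of lines from Kdm6a-null pancreatic cancer, and the WT genotype of the third line comes from its sample title. Other alleles of the mice, how Kdm6a was removed and the number of clones per line are not stated in the labels. Each line had 1 library per mark. No spread between replicates exists, no p-value was computed, and each difference is one between libraries in which genotype, line and, for the female KO line, sex cannot be told apart.

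H3K27ac is laid down at active promoters and at active enhancers, the regulatory stretches that act on genes from a distance. It sits on the same residue as the repressive mark H3K27me3, so a given histone tail carries one or the other. Kdm6a, also called UTX, removes methyl groups from that residue and works within the MLL3/4 complexes, which place methyl groups on lysine 4 at enhancers. Enhancers differ between cell types and between tumours more than promoters do, and enhancer programmes of pancreatic cancer cells separate their subtypes. A list entry is an enriched region over a background, so a missing entry means that enrichment was not called there, not that the mark was absent.

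The number of reads in called regions differed between the lists. Reads in autosomal H3K27ac regions numbered 12153207 for female KO, 10900677 for male KO and 3940762 for male WT. Neither the labels nor the lists state how many reads each library had in total. The lowest count of any region was 23, 20 and 11 reads in these lists. The check of sex against label used chromosome Y, which held 0 H3K27ac regions for female KO, 10 for male KO and 0 for male WT, while the H3K4me3 lists of the same lines held 0, 5 and 2. Loss of Kdm6a itself was not checked, because no gene positions of the build of the lists (mm9) were at hand, and for the same reason regions are given by position and not by gene.

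Promoter-like regions were more numerous than distal ones in all 3 lines, and they held most of the reads. They numbered 10310 in female KO (57.4% of its regions, 95% Wilson interval 56.6 to 58.1%), 11981 in male KO (51.4%, 50.7 to 52.0%) and 11413 in male WT (57.8%, 57.1 to 58.5%). The male KO line thus had the lowest promoter-like share and the longest distal list, 11341 regions against 7662 in female KO and 8334 in male WT. Promoter-like regions carried 75.3% of the reads for female KO, 70.4% for male KO and 72.5% for male WT. All Wilson intervals of shares reflect only counting error, with each region taken as an independent draw.

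**Figure D1:**
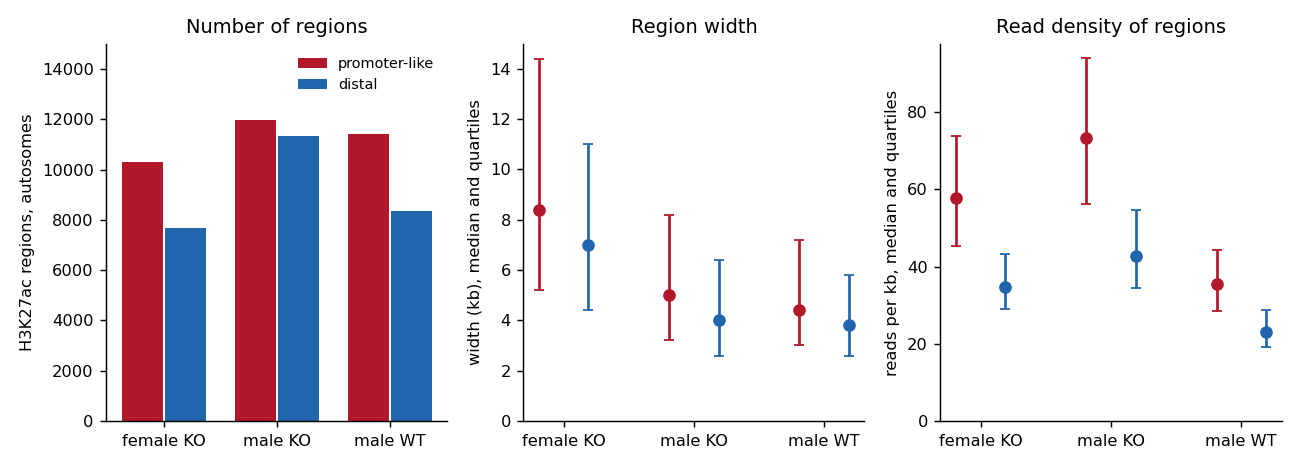
Number of autosomal H3K27ac regions (left), their width in kb (middle) and their reads per kb (right) by line and class; points are medians and bars run from the first to the third quartile. Promoter-like medians lie above distal medians in all 3 lines, and female KO regions are the widest, with medians of 8.4 and 7.0 kb.

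The female KO regions were the widest. The median promoter-like region spanned 8.4 kb in female KO, 5.0 kb in male KO and 4.4 kb in male WT, and the median distal region 7.0, 4.0 and 3.8 kb. Regions of at least 20 kb numbered 2120 for female KO, 728 for male KO and 401 for male WT. Of those in female KO, 1603 were promoter-like and 517 distal. Read density took another order, with medians of 57.7, 73.3 and 35.6 reads per kb at promoter-like regions and 34.6, 42.7 and 23.1 at distal ones. The distal regions lay far from the line's own H3K4me3, at a median gap of 34.8 kb in female KO, 35.6 kb in male KO and 27.4 kb in male WT. More than 100 kb separated 23.4, 23.8 and 18.5% of them from the nearest H3K4me3 region.

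Distal H3K27ac was far less shared between lines than promoter-like H3K27ac. Of all female KO regions, 29.7% were absent from the male WT list, meaning that no WT region overlapped them by 1 bp. The share was 16.5% for promoter-like regions (1700 of 10310, 15.8 to 17.2%) and 47.4% for distal ones (3634 of 7662, 46.3 to 48.5%). Of the male KO regions 32.8% were absent from male WT, 18.4% of the promoter-like (2208 of 11981, 17.7 to 19.1%) and 48.0% of the distal (5440 of 11341, 47.0 to 48.9%). At this overlap, over the full lists, the 2 KO lines gave close shares in each class. With the lists cut to the same number of regions by reads per kb, the distal shares were 51.8% (50.7 to 52.9%) for female KO and 38.03% (36.9 to 39.2%) for male KO, so the closeness did not hold there. Both comparisons use the same WT list, so the likeness of the 2 results is not independent.

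Regions absent from WT were narrower and held fewer reads per kb than shared ones. In female KO the promoter-like regions absent from WT had a median width of 5.0 kb and 41.3 reads per kb, against 9.2 kb and 61.1 for those shared. The distal ones had 5.6 kb and 31.4 reads per kb, against 8.6 kb and 38.6. In male KO the widths were 2.8 against 5.6 kb at promoter-like and 3.2 against 5.2 kb at distal regions. By reads instead of regions, the regions absent from WT held 5.53% of the promoter-like and 29.2% of the distal H3K27ac reads in female KO. The values for male KO were 5.19 and 26.5%. Counting an overlap only where it spans at least 50% of a region raised the promoter-like share absent from WT to 53.1% in female KO and 28.6% in male KO, still below the distal 64.7 and 54.4%.

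In the opposite direction, WT regions missing from a KO list showed the same order of classes. Of the male WT regions, 22.3% were absent from female KO, 7.81% of the promoter-like (891 of 11413, 7.33 to 8.31%) and 42.3% of the distal (3522 of 8334, 41.2 to 43.3%). From male KO 16.4% were absent, 4.53% of the promoter-like (517, 4.16 to 4.93%) and 32.6% of the distal (2720, 31.6 to 33.7%). Over the full lists, fewer WT regions were thus missing from the male KO list, which holds 23322 regions, than from the female KO list, which holds 17972. The female KO list nevertheless covers more sequence, 198 Mb against 145 Mb in male KO. The part of region number and covered length in these shares was not tested. A cut of the 3 lists to the same number of regions shortened only the male KO and WT lists and did not match covered length. The distal order of the KO lines then turned: 41.1% of distal WT regions were absent from male KO (39.9 to 42.2%) and 36.9% from female KO (35.71 to 38.01%). The promoter-like shares were then 6.49% (6.05 to 6.96%) and 7.16% (6.70 to 7.65%), with intervals that overlap. For male KO the order of the 2 directions turned too, since 38.03% of its distal regions were then absent from WT. With both lists limited to regions at or above their own median count, the promoter-like WT share was 15.2% for female KO and 8.06% for male KO. A WT region then also counted as absent where its KO counterpart fell below the KO median. These shares therefore do not show that WT regions of higher count were more often missing.

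**Figure D2:**
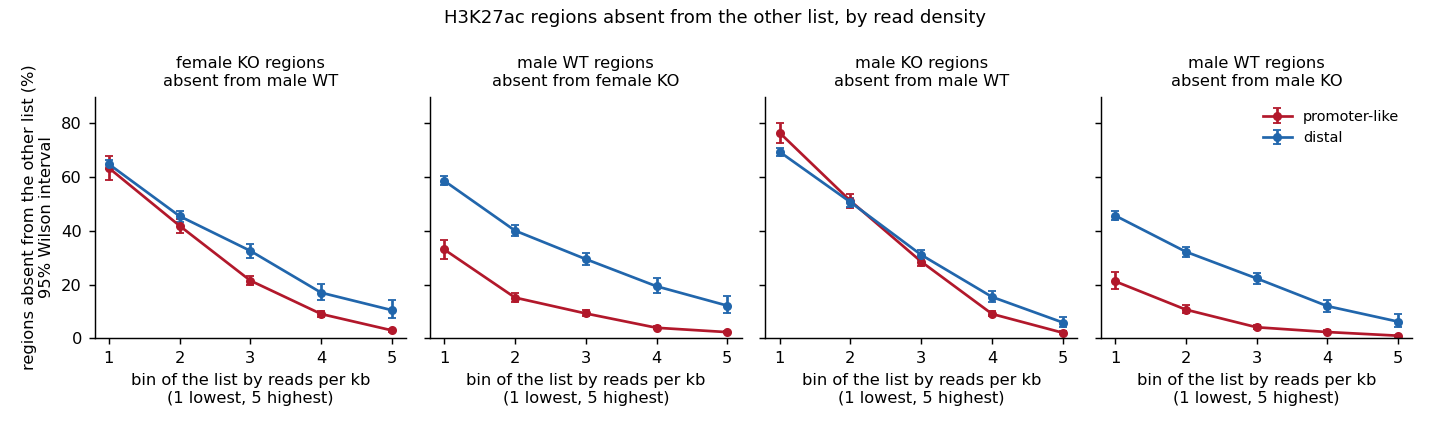
Share of H3K27ac regions absent from the other list (%, bars are 95% Wilson intervals) against 5 bins of equal size made from each list by reads per kb. In the lowest bin the promoter-like and distal shares are 63.5 and 64.9% for female KO regions and 76.6 and 69.4% for male KO regions, while in the male WT list distal regions lie above promoter-like ones in all 5 bins.

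Read density and class are linked, so both classes were set side by side at like density, with each list divided into 5 bins by reads per kb. Among female KO regions of the lowest bin, 63.5% of the promoter-like (59.0 to 67.7%) and 64.9% of the distal (63.2 to 66.5%) were absent from WT. In the highest bin these were 2.94% (2.41 to 3.57%) and 10.5% (7.58 to 14.3%). For male KO the lowest bin had the promoter-like share above the distal one, 76.6% (72.7 to 80.0%) against 69.4% (68.0 to 70.8%), and the highest bin 2.06 against 5.87%. The class difference among KO regions was therefore small or turned at low density. WT regions differed: 33.1% of promoter-like (29.6 to 36.8%) and 58.6% of distal regions (57.0 to 60.3%) of the lowest bin were absent from female KO, and 2.30 and 12.1% of the highest. For male KO they were 21.2 and 45.7% in the lowest bin and 0.964 and 6.19% in the highest. Distal WT regions were thus more often missing than promoter-like WT regions of like density in each of the 5 bins and for both KO lines, with intervals that do not overlap. Bins by width gave another picture for KO regions. In the narrowest bin 40.9% of promoter-like and 66.1% of distal female KO regions were absent from WT, and 54.6 and 71.6% for male KO.

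The 2 female KO promoter-like regions with the most reads among those absent from WT also lacked H3K27ac in male KO. The first, on chromosome 6 from 72145401 to 72207400, held 5458 H3K27ac reads over 62.0 kb in female KO. H3K27me3 covered all 62.0 kb of it in female KO, 58.4 kb in male KO and 48.2 kb in WT, and H3K4me3 covered 13.6, 2.8 and 1.4 kb. In female KO this stretch therefore carried all 3 marks in a population of cells, which does not show them on the same chromosome copy. The second, on chromosome 19 from 38646601 to 38695000, held 4487 reads over 48.4 kb, and its 3.6 kb of H3K4me3 had no counterpart in the other 2 lists. Of the top 2 distal regions, 1 lay on chromosome 7 from 151785201 to 151826200 with 2485 reads, and the other on chromosome 11 from 119511801 to 119560600 with 2429 reads. Male KO also had H3K27ac at both, over 24.0 kb with 788 reads and over 27.8 kb with 1323 reads. Neither H3K4me3 nor H3K27me3 was listed at either distal place in any of the 3 lines.

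All 4 of the male KO regions chosen in the same way overlapped H3K27ac of the female KO list. The promoter-like region on chromosome 4 from 119795401 to 119847000 held 3209 reads over 51.6 kb in male KO, and 8.8 kb of it was listed in female KO. H3K27me3 covered 43.2 kb of it in male KO and 50.8 kb in female KO, and was not listed there in WT. The other promoter-like region, on chromosome 6 from 34546401 to 34576200, held 2827 reads, and the female KO list covered its full 29.8 kb. H3K4me3 was already present there in WT over 3.4 kb, against 11.4 kb in male KO and 14.0 kb in female KO. The distal regions on chromosome 2 from 128276401 to 128301000 (2378 reads) and chromosome 6 from 146874601 to 146897600 (2004 reads) were covered in full by female KO regions too. At the place on chromosome 6 the female KO line had 4.8 kb of H3K4me3, which the male lines lacked, so it was distal in one KO line and promoter-like in the other.

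WT regions with the most reads among those absent from female KO were all held by male KO. On chromosome 3 from 101617801 to 101646600 the WT list had 2051 reads over 28.8 kb and the male KO list covered 13.0 kb with 712 reads. H3K27me3 covered 28.0 kb of it in female KO and was not listed in the male lines, and H3K4me3 covered 14.0 kb in WT and 1.8 kb in male KO. A second promoter-like region of chromosome 3, from 100611801 to 100634400, had 1376 reads in WT, and H3K27me3 covered 5.6 kb of it in female KO. The distal regions on chromosome 15 from 53941201 to 53960600 (1092 reads in WT, 1000 in male KO) and chromosome 6 from 101193801 to 101214600 (852 and 1360 reads) carried no H3K27me3 in any line.

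For male KO, the missing promoter-like WT regions with the most reads were present in female KO. The region on chromosome 10 from 61670201 to 61689600 had 1010 reads in WT and 18.6 kb of H3K27ac in female KO, and both of these lines had H3K4me3 there, which male KO lacked. On chromosome 19 from 4492401 to 4512400 WT had 971 reads, and H3K4me3 remained listed over 3.4 kb in male KO. H3K27me3 covered 1.8 kb of it in male KO and was not listed in WT. In female KO H3K27me3 covered 14.0 kb of it, although H3K27ac was listed over 17.8 kb. The 2 distal WT regions, on chromosome 1 from 75005201 to 75020600 (811 reads) and chromosome 10 from 51885201 to 51901800 (757 reads), were in neither KO list. In place of H3K27ac, the first was covered by H3K27me3 over its full 15.4 kb in female KO and over 3.6 kb in male KO, with none in WT. The second had no listed H3K27me3 in any line.

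Promoter-like WT regions missing from a KO list mostly lacked an H3K4me3 entry there as well, whereas most KO regions missing from WT had one in WT. Of the 891 WT regions absent from female KO, 31.3% overlapped an H3K4me3 region of female KO (28.4 to 34.4%), against 89.8% of the 10522 shared ones. Of the 517 absent from male KO, 41.4% overlapped H3K4me3 of male KO (37.2 to 45.7%), against 90.6% of the shared. Conversely, WT H3K4me3 was listed at 79.9% of the 1700 female KO regions absent from WT (77.9 to 81.7%) and at 78.7% of the 2208 of male KO (76.9 to 80.3%). The shares for shared regions were 98.4 and 98.2%. The difference between the 2 directions was present in the highest density bin, where 21.0% of 81 WT regions (13.5 to 31.1%) had H3K4me3 in female KO and 74.0% of 96 female KO regions (64.4 to 81.7%) had it in WT. Autosomal H3K4me3 lists held 15873829 reads for female KO, 7309295 for male KO and 12587726 for WT. The WT list thus holds more reads than that of male KO for H3K4me3 and the fewest for H3K27ac, and the part of read number in these shares was not tested.

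**Figure D3:**
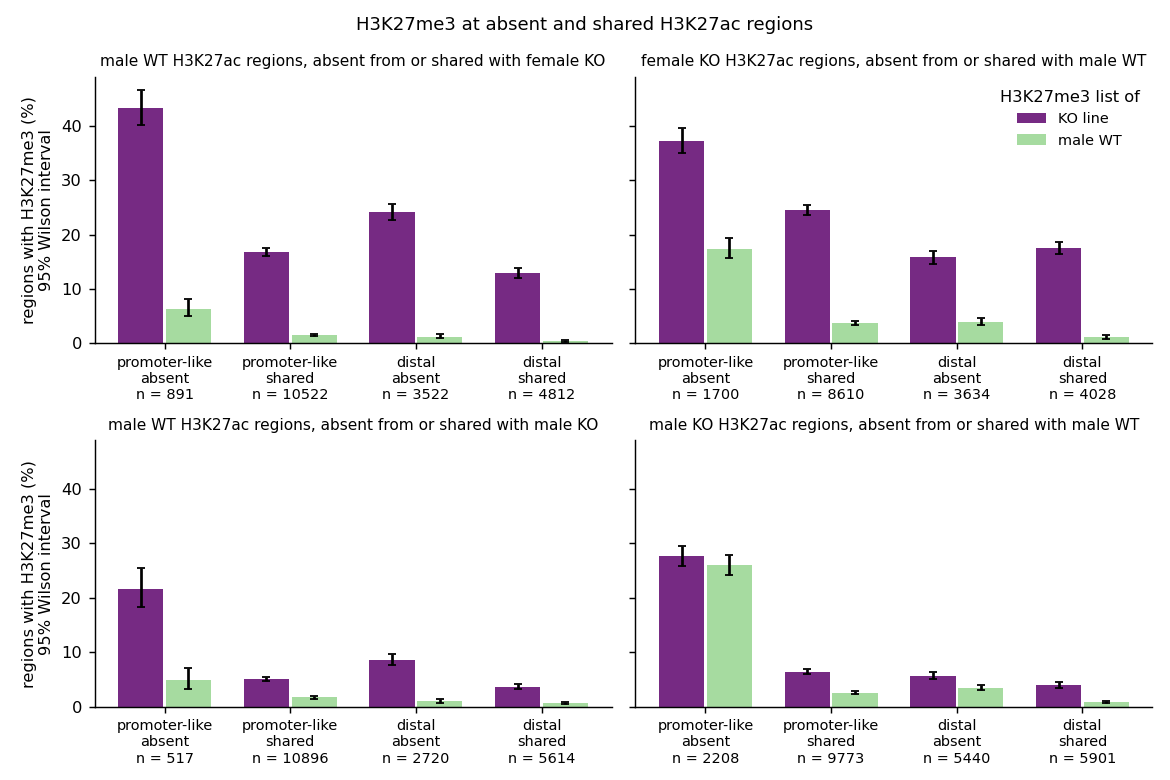
Share of H3K27ac regions that overlap an H3K27me3 region of the KO line (purple) or of male WT (green), in %, with 95% Wilson intervals; top panels are female KO against WT, bottom panels male KO against WT, and groups are promoter-like or distal regions absent from or shared with the other list. WT regions absent from a KO list have the higher H3K27me3 share in that KO line, 43.3% for promoter-like regions in female KO.

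H3K27me3 was listed more often at the WT regions that a KO line lacked than at those it kept, in both classes. At promoter-like WT regions absent from female KO, H3K27me3 of female KO was present at 43.3% (40.1 to 46.6%), against 16.7% at shared regions (16.0 to 17.4%). For distal regions the shares were 24.1% (22.7 to 25.5%) and 12.8% (11.9 to 13.8%). In male KO they were 21.7% (18.3 to 25.4%) against 5.02% for promoter-like and 8.64% (7.64 to 9.76%) against 3.65% for distal regions. The order was the same for H3K27me3 of WT itself, at lower shares. At promoter-like regions it was listed at 6.40% of those absent from female KO against 1.48% of those shared, and at 4.84% of those absent from male KO against 1.73% of those shared. At distal regions the values were 1.22 against 0.416% and 0.956 against 0.659%, and the intervals of the last pair overlap. Most missing WT regions therefore had no listed H3K27me3 in the KO line, more than 3 in 4 of the distal ones in each comparison.

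Regions absent from WT were in part places with H3K27me3 in WT. WT H3K27me3 was present at 17.4% of the promoter-like female KO regions absent from WT (15.7 to 19.3%) and at 3.73% of those shared. For male KO these were 26.0% (24.3 to 27.9%) and 2.58%. At distal regions they were 3.94 and 1.12% for female KO, and 3.47 and 0.813% for male KO. In female KO, the line's own H3K27me3 was listed at 37.2% of the promoter-like regions absent from WT and at 24.6% of those shared. In male KO the shares were 27.7 and 6.45%. The autosomal H3K27me3 lists cover 329 Mb in female KO, 238 Mb in male KO and 145 Mb in WT. A longer list meets more regions, and its part in the higher KO shares was not tested.

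Within each line, H3K27ac regions that also overlapped H3K27me3 were most frequent in female KO. Of its promoter-like regions 26.6% did so (25.8 to 27.5%), against 10.4% in male KO (9.83 to 10.9%) and 1.87% in WT (1.63 to 2.13%). Of distal regions 16.7, 4.80 and 0.756% did so. The order of the lines is that of the length of their H3K27me3 lists.

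Regions held by both lists were compared by reads. Overlapping regions of a KO list and the WT list were merged, reads were summed per list, and the log2 ratio was centred on its median. The median ratio was 3.09 for female KO over 12445 merged regions and 2.68 for male KO over 15187. After centring, 10.1% of the merged regions were at least 2-fold higher in female KO (1262) and 12.7% at least 2-fold lower (1581). For male KO 6.44% were higher (978) and 10.6% lower (1611). Most of this came with called length: over the 200 bp bins that both lists hold, reads per kb left 186 regions higher and 275 lower in female KO and 125 higher and 277 lower in male KO.

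**Figure D4:**
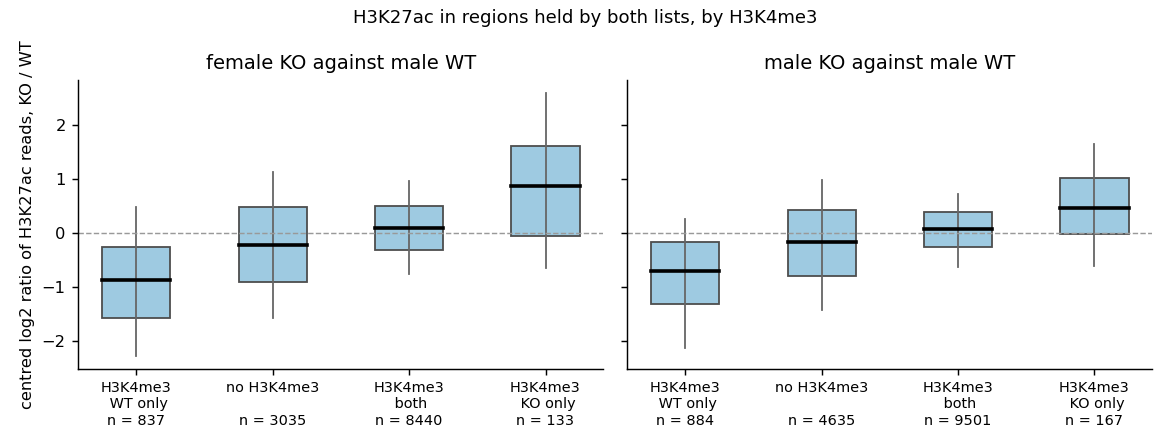
Centred log2 ratio of H3K27ac reads (KO over WT) in merged regions held by both lists, by whether H3K4me3 is listed in WT only, in neither line, in both or in the KO line only; black lines are medians, boxes run from the first to the third quartile and grey lines from the 10th to the 90th percentile. Medians run from -0.87 to 0.87 for female KO and from -0.70 to 0.46 for male KO in that order.

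Regions with H3K4me3 in 1 line only had their H3K27ac ratio toward that line. In female KO the median centred log2 ratio was -0.87 at the 837 merged regions with H3K4me3 in WT only, -0.22 at the 3035 with none, 0.09 at the 8440 with it in both lines and 0.87 at the 133 with it in female KO only. In male KO the medians were -0.70 (884 regions), -0.17 (4635), 0.08 (9501) and 0.46 (167). At regions with H3K4me3 in WT only, 44.3% were at least 2-fold lower in female KO (41.0 to 47.7%) and 36.8% in male KO (33.7 to 40.0%), well above the 12.7 and 10.6% of all merged regions. At regions with H3K4me3 in the KO line only, 44.4% were at least 2-fold higher in female KO (36.2 to 52.8%) and 25.7% in male KO (19.7 to 32.9%), against 10.1 and 6.44%. Over the bins held by both lists the order of the 4 groups was the same with smaller differences, from -0.35 to 0.33 in female KO and from -0.31 to 0.24 in male KO. The 2-fold shares were much smaller there too. With H3K4me3 in WT only, 11.1% were lower in female KO and 10.2% in male KO, against 275 of all 12445 and 277 of all 15187 merged regions. With it in the KO line only, 15.8 and 5.39% were higher, against 186 and 125 of all merged regions. Regions without H3K4me3 in either line were more spread than those with it in both. Their quartiles were -0.90 and 0.49 in female KO and -0.79 and 0.42 in male KO, against -0.31 and 0.51, and -0.25 and 0.39, with H3K4me3 in both lines. Over the bins held by both lists the spreads lay much closer. The quartiles there were -0.41 and 0.21 in female KO and -0.38 and 0.23 in male KO, against -0.22 and 0.33, and -0.20 and 0.28.

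The merged region on chromosome 5 from 77779001 to 77838600 was among the 2 promoter-like places furthest toward each KO line. WT had 137 reads over 7.2 kb there, female KO 7091 and male KO 5962, at centred log2 ratios of 4.07 (exact 95% interval of counting error 3.82 to 4.32) and 4.02 (3.78 to 4.28, from 77773201 to 77838200). Density differed as well as length, with 19.03 reads per kb in WT against 119 in female KO and 91.7 in male KO. The promoter-like medians of these lines were 35.6, 57.7 and 73.3. WT thus lay below its own level there and each KO line above its own, male KO by less. The other promoter-like places were on chromosome 13 from 97693601 to 97720200 for female KO (2047 reads against 27, 4.62) and, for male KO, on chromosome 4 from 120476401 to 120503200 (2301 against 63, 3.77). H3K4me3 was listed in all 3 lines at these 3 places. Distal places furthest toward female KO lay at 93455001 to 93483000 of chromosome 14 (1250 reads against 18, 4.49) and at 68979801 to 68999400 of chromosome 3 (657 against 15, 3.83). For male KO these were 57683601 to 57707400 of chromosome 16 (1461 against 24, 4.51) and 41422601 to 41441000 of chromosome 13 (2208 against 57, 3.86).

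Toward WT, 1 promoter-like place was shared by both comparisons, on chromosome 16 from 92488201 to 92504600. WT had 603 reads over 16.4 kb there, female KO 44 over 1.4 kb and male KO 76 over 3.0 kb, at centred log2 ratios of -5.40 (-5.88 to -4.96) and -4.41 (-4.77 to -4.06). Reads per kb were 31.4 in female KO and 25.3 in male KO, below the medians of 57.7 and 73.3 of their promoter-like regions, and 36.8 in WT, near its median of 35.6. Both called length and density, read against each line's own level, were thus lower in the KO lines. H3K4me3 covered 11.4 kb in WT, 1.8 kb in female KO and 1.6 kb in male KO. H3K27me3 covered 16.4 kb in female KO and 7.0 kb in male KO, and was not listed in WT. The other promoter-like places toward WT, on chromosome 5 from 64212201 to 64225800 for female KO (-5.16) and chromosome 1 from 161910001 to 161939800 for male KO (-4.78), had no H3K27me3 in any line. For female KO the distal places were 25112001 to 25127800 of chromosome 5 (-3.94) and 97895801 to 97906200 of chromosome 8 (-3.86). At the latter H3K27me3 covered the full 10.4 kb in female KO. For male KO they were 5514201 to 5528400 of chromosome 19 (-4.88) and 91142801 to 91173200 of chromosome 5 (-4.84), both also listed in female KO, with 1041 and 4397 reads in regions that reach beyond these borders.

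Female KO regions were wider than their WT counterparts at the same places. Where 1 region of each list met 1 of the other, the promoter-like median was 8.0 kb in female KO against 4.0 kb in WT (7552 pairs), and 89.6% were wider in female KO. Distal pairs had 8.0 against 4.4 kb (2751 pairs), with 82.2% wider in female KO. In male KO the medians were 5.2 against 4.2 kb at 9304 promoter-like pairs and 5.0 against 4.2 kb at 4477 distal pairs, with 70.5 and 60.7% wider in male KO. A single region also spanned several WT regions more often in female KO: 15.3% of its promoter-like (14.6 to 16.0%) and 6.84% of its distal regions (6.30 to 7.43%) covered 2 or more WT regions. For male KO the shares were 6.71 and 2.86%. WT regions over 2 or more female KO regions were rarer, 0.929% of promoter-like and 0.924% of distal ones. The WT list holds the fewest H3K27ac reads, and the part of read number in these widths was not tested.

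Chromosomes stood in a similar order for all 3 marks. In female KO the median centred log2 ratio of H3K27ac was highest on chromosome 4 (0.78) and chromosome 6 (0.56) and lowest on chromosome 15 (-0.34) and chromosome 1 (-0.32). The H3K4me3 medians of these chromosomes were 0.64, 0.33, -0.21 and -0.25, and those of H3K27me3 2.09, 0.48, -0.31 and -0.34. In male KO the H3K27ac medians were highest on chromosome 14 (0.32) and chromosome 13 (0.31) and lowest on chromosome 19 (-0.29), with 0.26, 0.19 and -0.27 for H3K4me3. Across the 19 autosomes the H3K27ac and H3K4me3 medians had a Pearson r of 0.99 in female KO and 0.96 in male KO. With H3K27me3 they had 0.89 and 0.91. These are descriptions over 19 points that share lines and, for the 2 KO lines, the WT libraries, and the number of chromosome copies per line was not tested. On chromosome 4 in female KO the offset was larger at promoter-like (0.86) than at distal regions (0.24), and over bins held by both lists it was 0.26. The promoter-like median was above the distal one on every autosome in female KO, as on chromosome 14 with 0.44 against 0.07. That order is thus not particular to chromosome 4.

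**Figure D5:**
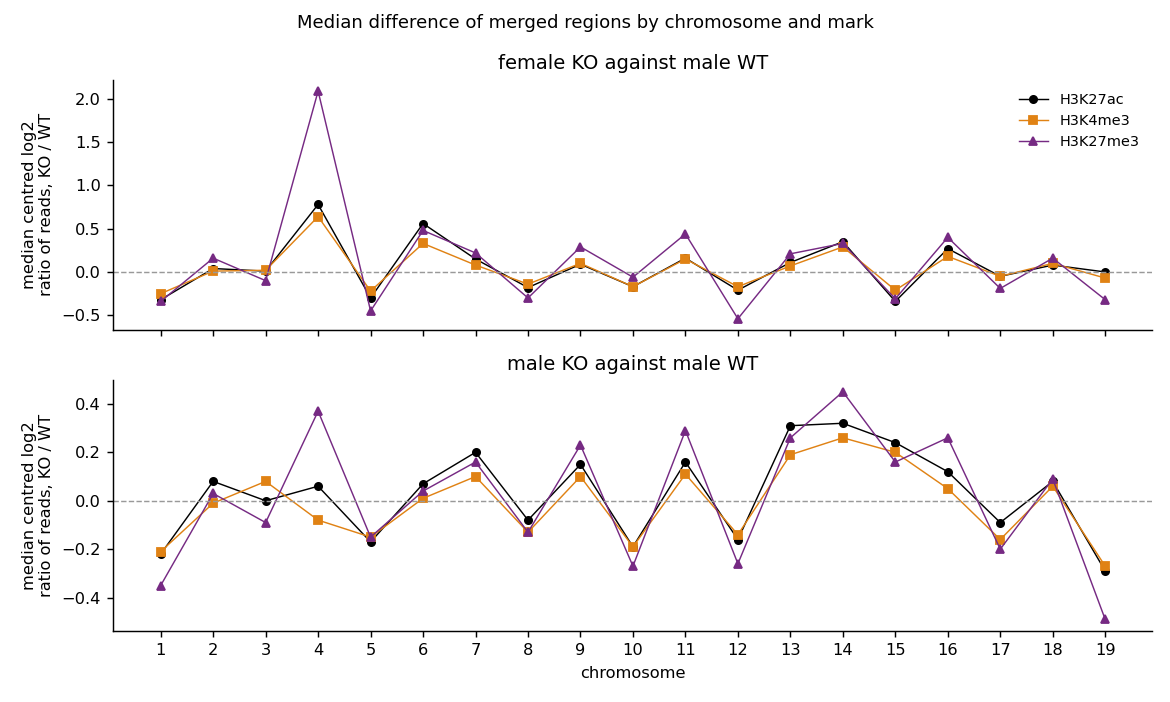
Median centred log2 ratio of reads (KO over WT) in merged regions of each autosome, for H3K27ac, H3K4me3 and H3K27me3, in female KO (top) and male KO (bottom); lines join the points of 1 mark as a guide, and the 2 vertical scales differ. The order of the chromosomes is similar for the 3 marks, with the highest H3K27ac median on chromosome 4 in female KO (0.78) and on chromosome 14 in male KO (0.32).

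The shares of absent regions also varied by chromosome. On chromosome 4, 33.0% of promoter-like (29.7 to 36.5%) and 68.0% of distal female KO regions (63.9 to 71.8%) were absent from WT, and 30.9 and 61.1% of those of male KO. On chromosome 19 they were 11.2 and 32.6% for female KO and 10.9 and 33.2% for male KO. Chromosome 15 differed between the KO lines, with 34.1% of distal female KO regions absent from WT (29.0 to 39.6%) and 54.3% of distal male KO regions (50.6 to 58.0%). Of distal WT regions on chromosome 15, 50.6% were absent from female KO (45.9 to 55.2%) and 24.3% from male KO (20.5 to 28.5%).

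Some absent regions lay close together. Windows were ranked by their number of absent regions, so windows with many regions can rank high. Over all autosomes, 48.0% of distal male KO and 47.4% of distal female KO regions were absent from WT. For promoter-like regions these were 18.4 and 16.5%, and 42.3% of distal WT regions were absent from female KO. The totals per window below count both classes. The 1 Mb window with the most distal male KO regions absent from WT was on chromosome 4 from 119000001 to 120000000, with 24 such regions, where male KO had 35 H3K27ac regions, female KO 4 and WT 4. Next was chromosome 4 from 108000001 to 109000000, with 18 among 30 male KO regions. The windows from 120000001 to 121000000 and 154000001 to 155000000 had 16 each, among 34 and 37. For female KO the densest distal window was on chromosome 4 from 11000001 to 12000000, with 14 among 27 female KO regions. Promoter-like regions absent from WT were densest on chromosome 13 from 67000001 to 68000000 for female KO, with 16 among 26 regions. In the same window male KO had 11 among 23. H3K4me3 was listed there in similar number in each line, with 29, 30 and 33 regions in female KO, male KO and WT, and H3K27me3 in none. Of the 38 WT regions on chromosome 5 from 23000001 to 24000000, 16 were distal ones absent from female KO.

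A small part of the stretches of at least 200 kb with no region of any mark in 1 line held clusters of H3K27ac in another. On chromosome 15 from 53735201 to 54398600 female KO had no region of any of the 3 marks, while WT had 14 H3K27ac regions with 3216 reads and male KO 14 with 3072. A stretch of chromosome 12 from 12271001 to 12943800, also empty in female KO, held 14 H3K27ac regions in WT and 9 in male KO. Male KO was empty on chromosome 19 from 28194601 to 28632200, where WT had 9 H3K27ac regions and female KO 8, all distal. WT was empty on chromosome 15 from 52782201 to 53172200, where female KO had 8 and male KO 10. Of 1591 such stretches empty in female KO, 29 had at least 5 WT H3K27ac regions. Of 1734 empty in male KO, 8 did. In the other direction, of 1599 stretches empty in WT, 32 had at least 5 female KO regions and 50 at least 5 male KO regions. Whether DNA of these stretches was lost was not tested.

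Beside the other marks, the share of KO regions absent from WT was intermediate for H3K27ac. It was 29.7% for H3K27ac, 10.5% for H3K4me3 and 52.6% for H3K27me3 in female KO, and 32.8, 15.5 and 48.2% in male KO. Promoter-like H3K27ac (16.5 and 18.4%) lay above H3K4me3, and distal H3K27ac (47.4 and 48.0%) below H3K27me3, in male KO only slightly. The opposite direction differed. Distal WT H3K27ac regions were absent from female and male KO at 42.3 and 32.6%, above H3K27me3 at 26.2 and 24.8%. Promoter-like WT regions were absent at 7.81 and 4.53%, below H3K4me3 at 17.9 and 13.15%. Region widths and depths differ between marks, so these shares are set side by side without a ranking of how much each mark varied.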

How the data were processed

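The submitters' processing notes name Bowtie 1.1.2, SICER 1 and the build mm9. The authors' deposited lists, 1 per library, give chromosome, start, end and a whole number, taken as that region's read count since the lists carry no header. Neither the control library nor the false discovery rate is stated in these sources. Coordinates are printed 1-based. All regions of autosomes 1 to 19 were used without a filter. Masks of 200 bp bins were compared with numpy 2.4.6, scipy 1.17.1 and pandas 2.3.3 under Python 3.11.15 (figures with matplotlib 3.10.9), and the 4 counts of absent regions were checked with bedtools 2.31.1, with differences of 0. The code was checked on simulated lists. Merged regions were classed by WT H3K4me3 unless stated. Regions named are, per KO line and class, the 2 with the most reads absent from WT, the 2 with the most reads absent from the KO list, and the 2 highest and 2 lowest centred ratios among merged regions with at least 200 reads in 1 list. The members and these rules were chosen with earlier results of these data known. Alternatives were a 50% overlap, regions at or above the median count, lists of equal number by reads per kb, other promoter-like definitions, omission of chromosome 4, joining within 1 kb, and other scalings. With 1 library per line, no library could be left out.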

Additional observations from a re-analysis of the deposited data

Results flagged for a closer look

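The median H3K27ac difference on chromosome 15 had opposite signs in the 2 KO lines, -0.34 in female KO and 0.24 in male KO on the centred log2 scale, each with 1 library, and the difference between the lines was not tested. The male KO list held 10 H3K27ac regions on chromosome Y, which the comparisons leave out, with 3525 reads, while the male WT list held 0.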

How the results depend on the processing

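The shares below are given as promoter-like and distal. With a 50% overlap, 53.1 and 64.7% of female KO and 28.6 and 54.4% of male KO regions were absent from WT, and 8.89 and 44.0% of WT regions were absent from female KO and 6.80 and 36.4% from male KO. With both lists limited to regions at or above their own median count, the 4 pairs were, in that order, 24.6 and 44.6%, 25.9 and 43.2%, 15.2 and 39.9%, and 8.06 and 32.9%. With lists of equal number, which left the female KO list whole, they were 17.2 and 51.8%, 16.0 and 38.03%, 7.16 and 36.9%, and 6.49 and 41.1%. With promoter-like set by the union of the 3 H3K4me3 lists they were 15.7 and 53.6%, 18.1 and 52.1%, 7.98 and 43.9%, and 4.79 and 33.8%. Without chromosome 4, 15.2 and 45.9% of female KO regions and 17.6% of promoter-like male KO regions were absent from WT. With regions closer than 1 kb joined, they were 15.6 and 46.1% for female KO, and 43.5% of distal WT regions were absent from female KO. The distal share was above the promoter-like share in 7 of 7 settings for each of the 4 shares, the reported one included. None of these settings compared the classes at like read density. In the lowest density bin of male KO regions the promoter-like share was above, 76.6 against 69.4%, and in the next bin 51.2 against 50.7%. The distal share was above in the other bins of male KO and in all bins of the other comparisons.

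The promoter-like share of regions in female KO, male KO and WT was 63.2, 56.8 and 60.0% by the union of lists, and 72.9, 67.9 and 71.6% at or above the median count. With H3K4me3 within 1 kb it was 58.2% in female KO and 58.7% in WT. With lists of equal number, median widths were 5.2 kb (promoter-like) and 5.0 kb (distal) in male KO and 4.2 kb (distal) in WT. Reads per kb over bins held by both lists left 186 higher and 275 lower regions in female KO. In male KO they left 125 and 277. Each region's reads were spread evenly over its bins for this setting. Centring within chromosomes, chosen after seeing the data, gave 954 and 1571, and 857 and 1621. The cause of the shifts between settings was not tested. No paired analysis was possible because each line has 1 library per mark. Total reads per library are not known, so what depth limits could not be measured.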
